A study of Mus musculus with 18 samples.

Results

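The genes described here coat the lipid droplet of the fat cell or release fatty acids from it: the perilipins Plin1, Plin2, Plin3 and Plin4, the droplet protein Cidec, and the lipases Lipe, Pnpla2 and Mgll. They were chosen by name, as the peaks whose deposited Ensembl gene maps to one of these 8 symbols. A peak in at least 1 list was found for 7 of them, against 12634 genes with a peak in the series, and they held 384 of 338246 peaks. Mgll had no peak in any of the 9 lists.

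The lists come from m6A-seq of 3T3-L1 cells, in which RNA fragments bound by an antibody against N6-methyladenosine (m6A) are sequenced beside the input, the fragments before binding. 3T3-L1 is a clonal mouse embryo fibroblast line that stores fat once it is induced to differentiate. Each list rests on an IP and its input, which makes 18 samples. The groups were siCtrl, control pre-adipocytes that the labels call normal (2 lists), siFTO, pre-adipocytes with Fto knocked down (2 lists), and stages of adipogenesis on days -2, 0, 2, 5 and 10 (1 list each). The labels give no day for the siRNA cells. The knockdown cells were a single line and a single siRNA label, and since nothing says that the 2 replicates were separate cultures, their spread may be technical.

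The triglyceride of a lipid droplet is held in by a coat of proteins and a single layer of phospholipid. Perilipin 1 shields it in fat cells and, once protein kinase A phosphorylates it, frees the activator Abhd5 for adipose triglyceride lipase (Pnpla2). Pnpla2 removes the first fatty acid, hormone-sensitive lipase (Lipe) the next and monoglyceride lipase (Mgll) the last. m6A is written on messenger RNA by the METTL3 and METTL14 methyltransferase, often in the coding sequence and near the stop codon, and FTO is an enzyme that can remove it.

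Lists held 26485 peaks (day -2) to 44529 peaks (day 10), with 31259 to 39476 in the siRNA lists. The siFTO lists and day -2 stood apart from the others. Their 5′ UTR share was 4.33%, 5.01% and 5.90% of peaks, beside 11.2% to 14.0% in the other 6 lists, and their intron share was 19.5%, 17.1% and 21.4%, beside 11.1% to 14.5%. Lines of the mitochondrial genome numbered 12, 13 and 21 there and 0 to 2 elsewhere. Peaks of Fto itself numbered 6 and 6 in siCtrl, 5 and 4 in siFTO, and 0, 5, 4, 4 and 6 from day -2 to day 10, which does not measure its RNA. Of 10 adipocyte markers, 3 had a peak in each siRNA list, and 5, 3, 7, 8 and 8 had one over the stages from day -2 to day 10. Of 7 preadipocyte and fibroblast markers, 5 or 6 had a peak in each list. Endothelial markers had none (0 of 3), macrophage markers had 1 of 4 (Csf1r, 75 bases in siCtrl 2 and in siFTO 1), and muscle markers had 1 of 3 (Des, in all 9 lists). The measure used here is covered bases, the number of bases of a gene that lie under at least 1 peak of a list. It depends on the RNA level as well as on the mark, and in bulk cells fewer cells of a type and less RNA per cell cannot be told apart.

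The starts of 4 genes are shown first, since peaks reached their annotated starts, in lists that differed between the genes. Letters come from RefSeq (GRCm38.p6), run 5′ to 3′ on the transcribed strand, and are limited to bases under a peak of at least 1 list. Lower case lies before the RefSeq start and capitals are the first transcribed bases. All 4 genes lie on the minus strand. The Plin1 stretch is chr7:79732747-79732825, wholly under a peak on each of days 2, 5 and 10. The Lipe stretch is chr7:25390083-25390125, at the start of a shorter RefSeq transcript inside the gene. A day 5 peak covered all of it, and peaks of days 2 and 10 covered its end but not the first transcribed base. The Plin4 stretch is chr17:56109753-56109800, wholly under a peak on each of days 0, 2 and 5. The Plin3 stretch is chr17:56290482-56290525, wholly under a peak on days 0 and 10.
Plin1: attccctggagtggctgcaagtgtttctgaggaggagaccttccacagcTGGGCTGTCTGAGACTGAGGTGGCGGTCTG
Lipe: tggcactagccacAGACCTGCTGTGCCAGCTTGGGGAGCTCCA
Plin4: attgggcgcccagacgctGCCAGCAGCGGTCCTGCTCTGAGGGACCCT
Plin3: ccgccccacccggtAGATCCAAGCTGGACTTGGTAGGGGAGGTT
The letters GGAC, a common core of m6A sites, were searched on the transcribed strand only. They occur 1 time in the Plin4 stretch and 1 time in the Plin3 stretch. Windows of all 32851 RefSeq starts held them in the same stretch in 16.6% of cases for Plin4 and 15.5% for Plin3. Neither the Plin1 stretch nor the Lipe stretch holds them, where 25.3% and 15.2% of windows do. Of the other RefSeq starts, that of Pnpla2 had peaks on days 2, 5 and 10 just after it, and those of Plin2, Mgll, Cidec and the longer Lipe transcript had none in the window.

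The 8 genes differed in the lists that held their peaks. Plin3, Plin4 and Lipe had a peak in all 9 lists, as did 44.3% of all genes with a peak. For Lipe, the day -2 peak was an intron one of 75 bases held by no other list. Regions held by all 9 lists numbered 0 for Lipe, 3 for Plin3 and 5 for Plin4. Plin1 and Cidec had peaks on each of days 2, 5 and 10 and in none of the other 6 lists, a pattern found for 62 of 12634 genes (0.491%). Pnpla2 had peaks in 8 lists, all but day -2. Plin2 had a single peak on day 2, and Mgll none.

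**Figure D1:**
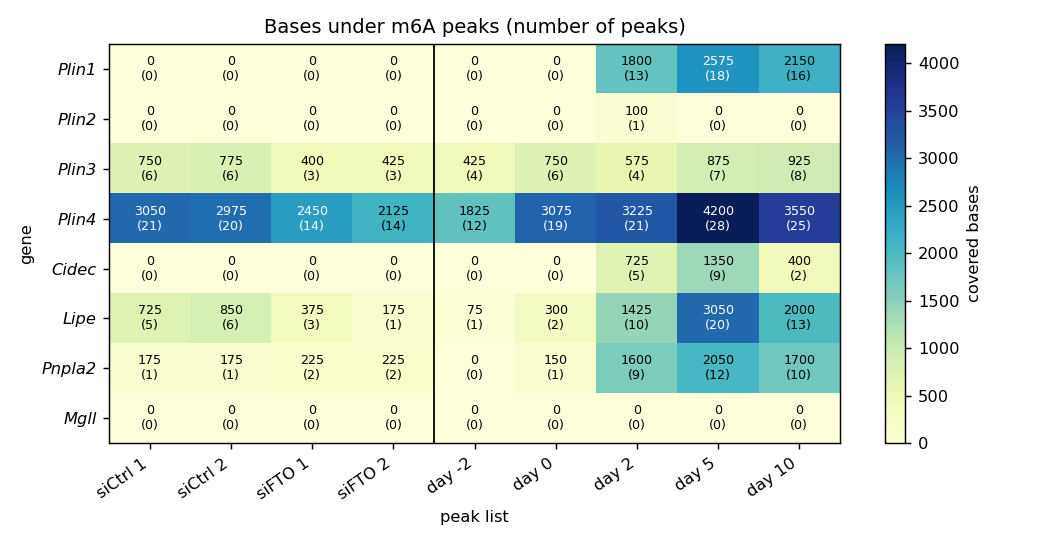
Bases under m6A peaks for each of the 8 genes (rows) in each of the 9 peak lists (columns), with the number of peaks in parentheses; color gives covered bases. Plin1 and Cidec have values on days 2, 5 and 10 only, Plin4 has the most covered bases in every list, and Mgll is at 0 throughout.

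Plin1 (ENSMUSG00000030546, chromosome 7, 79721164-79732904, mm10, minus strand) encodes the perilipin typical of fat cells. It had 0 covered bases in the 4 siRNA lists and on days -2 and 0, and 1800, 2575 and 2150 on days 2, 5 and 10, from 13, 18 and 16 peaks. The lists of days 2, 5 and 10, called late here, did not overlap the other 6. Its peaks merged into 14 regions, of which 10 were held by all of days 2, 5 and 10. The widest of them, held by all 3 late lists (79721301-79721925), carried coding, intron and 3′ UTR labels and reached across the end of the coding sequence. The top Plin1 peak was not the same one in each list. On days 2 and 10 it lay in the region 79723126-79723475, with the authors' fold of 102.49 (percentile 98.4 of that list) and 15.68 (78.4). On day 5 it lay in the widest region, with a fold of 175.90 (99.4). On each of these days the top peak was labelled as intron, next to coding peaks. Folds and percentiles are set side by side and not compared, since the scaling of each list is not given and lists differ in length. A further region in intron (79732576-79732700) was held by days 5 and 10 alone, with folds of 27.82 and 2.89.

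Cidec (ENSMUSG00000030278, chromosome 6, 113424634-113435760, minus strand), also known as Fsp27, helps droplets grow by passing lipid from small ones to large ones. It had 725 covered bases on day 2, 1350 on day 5 and 400 on day 10, from 5, 9 and 2 peaks, and 0 in the other 6 lists. Of its 7 regions, 4 were held by day 5 alone. The region held by all late lists (113425201-113425725) carried coding and 3′ UTR labels, with top folds of 39.87, 59.79 and 3.64, at percentiles 94.0, 96.3 and 27.6 of their lists. The day 10 list thus kept peaks at the end of the coding sequence and none in the 5 coding regions upstream.

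Plin2 (ENSMUSG00000028494, chromosome 4, 86626910-86670217, minus strand) encodes the perilipin found on droplets of most cell types. Its only peak was a coding one on day 2 (86662051-86662150), with a fold of 1.27, at percentile 0.521 of that list. Mgll (ENSMUSG00000033174, chromosome 6, 88724412-88828360) had no peak, and no peak of another gene lay in its RefSeq span. The absence of a peak does not show that the RNA was absent or unmethylated, as input coverage is not in the lists used here.

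Lipe (ENSMUSG00000003123, chromosome 7, 25379527-25398486, minus strand) had 725 and 850 covered bases in siCtrl, 375 and 175 in siFTO, and 75, 300, 1425, 3050 and 2000 from day -2 to day 10. The late lists were all above every other list, as they were for Plin4. The share of all genes with this order was not counted. Of 16 regions, 5 were held by day 5 alone. Regions on coding sequence at 25380526-25380825 and 25395501-25395675 were held by 7 lists each, and the latter by all 4 siRNA lists, with folds of 4.40, 4.93, 4.67 and 4.22. Intron peaks were found in several places in the late lists, one of them, on day 5, over the shorter RefSeq start printed above, and 2 intron regions were held by days 5 and 10 alone. These lie at 25388901-25389075, with folds of 10.77 and 3.41, and at 25383951-25384150, with folds of 56.84 and 5.21. The RefSeq gene 4732471J01Rik overlaps Lipe, with 1 peak of its own inside the Lipe span, and since the strand of reads is not given, reads of the pair cannot be told apart.

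Pnpla2 (ENSMUSG00000025509, chromosome 7, 141455188-141460743, plus strand) had 175 covered bases in each siCtrl list, 225 in each siFTO list, and 0, 150, 1600, 2050 and 1700 from day -2 to day 10. Its late lists were also above every other list, again with no share of all genes to set beside this. Of its 4 regions, all carried more than 1 part label, intron and 3′ UTR in 3 of them and 5′ UTR and coding in the one at the gene start. The region held by 8 lists lies at 141458426-141459000. Regions at the gene start (141455201-141455450) and toward its end (141459151-141460100) were held by days 2, 5 and 10 alone.

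**Figure D2:**
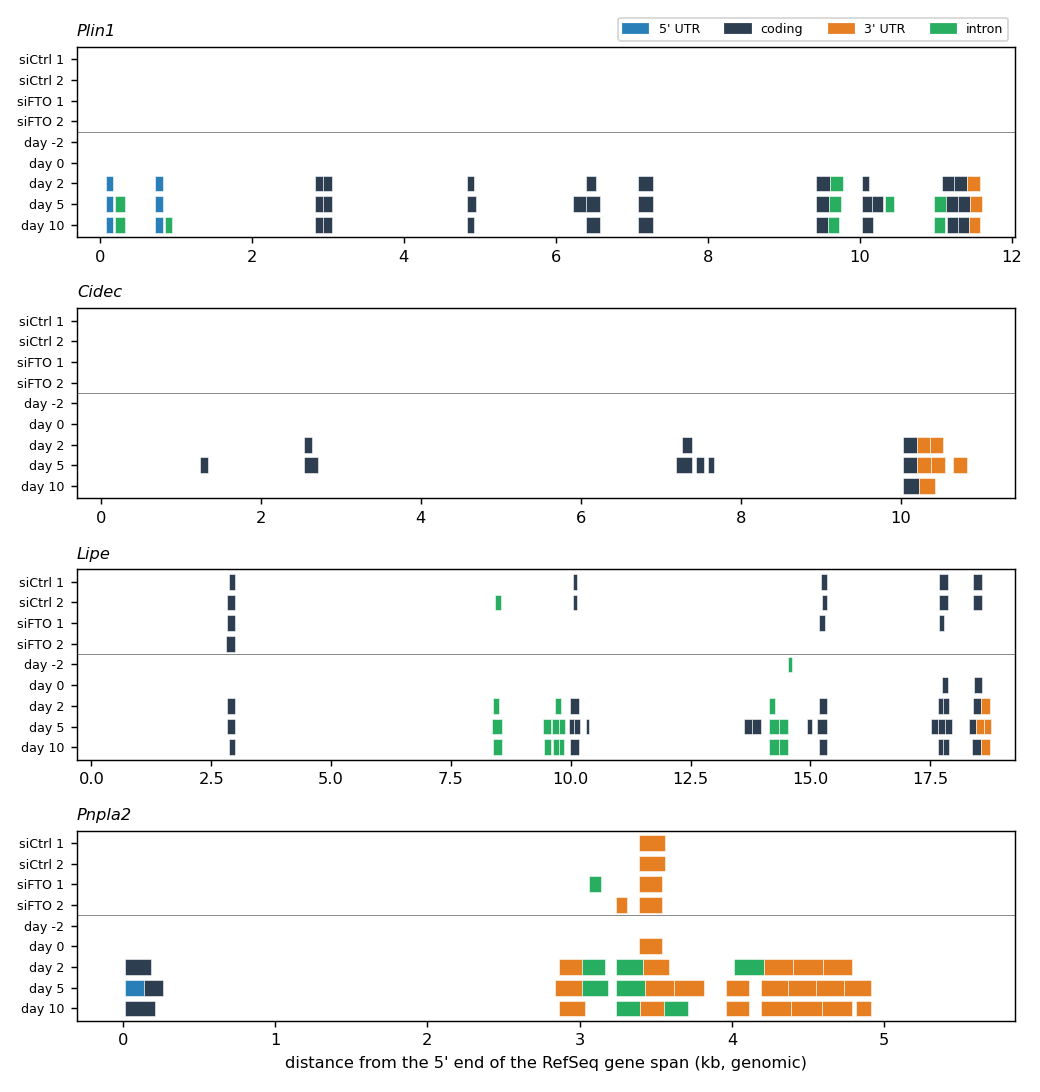
Peaks of Plin1, Cidec, Lipe and Pnpla2 in the 9 lists (rows), by distance in kb from the 5′ end of the RefSeq gene span; each block is a peak, colored by the authors' part label. Plin1 and Cidec peaks occupy only the rows of days 2, 5 and 10, with stop-codon-side blocks in all 3.

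Plin4 (ENSMUSG00000002831, chromosome 17, 56100587-56109948, minus strand) carries a long run of similar repeats that bind the surface of droplets. Its values were the highest of the 8 genes in every list, at 3050 and 2975 covered bases in siCtrl, 2450 and 2125 in siFTO, and 1825, 3075, 3225, 4200 and 3550 from day -2 to day 10. Of 17 regions, 5 were held by all 9 lists, and they lie mainly on coding sequence between 56103826 and 56107475. The longest (56106401-56107475, 1075 bases) had folds of 14.86 and 12.85 in siCtrl, 8.83 and 13.00 in siFTO, and 12.17, 13.66, 18.13, 28.58 and 13.67 over the stages. How reads that match several repeats were placed is not stated in the sources at hand. The RefSeq gene Hdgfl2 overlaps the Plin4 span, but no peak inside the span was assigned to it. Regions held by days 5 and 10 alone lie at 56103101-56103175 in coding sequence (folds 2.63 and 1.83), 56102576-56102750 in intron (2.95 and 2.28) and 56102276-56102388 across both (3.10 and 1.78).

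Plin3 (ENSMUSG00000024197, chromosome 17, 56278962-56290511, minus strand) encodes a perilipin that moves from cytosol to new droplets in many cell types. It had 750 and 775 covered bases in siCtrl, 400 and 425 in siFTO, and 425, 750, 575, 875 and 925 over the stages. Of 8 regions, 3 were held by all 9 lists, at 56284126-56284375, 56281526-56281625 and 56280726-56280875, all on coding sequence. Its stage values spanned a narrower range than those of Lipe, Pnpla2 and Plin1.

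**Figure D3:**
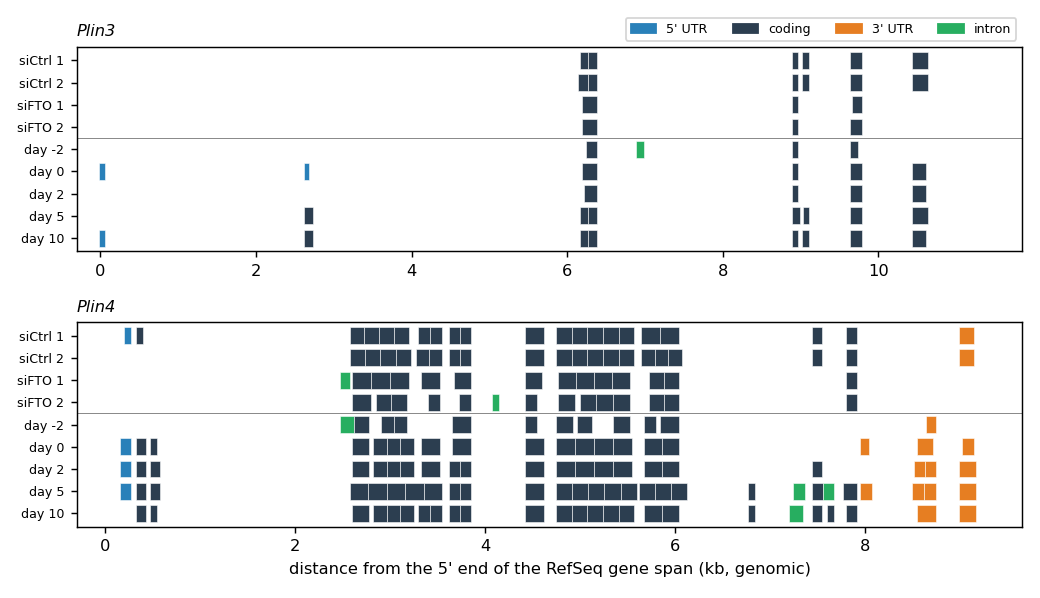
Peaks of Plin3 and Plin4 in the 9 lists (rows), by distance in kb from the 5′ end of the RefSeq gene span; each block is a peak, colored by the authors' part label. The cluster of Plin4 coding peaks in the middle of the gene is present in all 9 lists, and 3 Plin3 coding regions recur in all 9.

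Across stages, the 8 genes together had 2325, 4275, 9450, 14100 and 10725 covered bases from day -2 to day 10. Per 1000000 bases covered in the whole list this was 715, 831, 1731, 2320 and 1751. The day 5 list held the most, on both scales. With 1 list a stage there is no test, and a gene was called when covered bases differed by at least 2-fold.

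From day -2 to day 0, Lipe and Pnpla2 were called higher, 2 of 4 genes with a peak in either list, against 40.6% of all genes so tested, and 0 of 4 lower against 25.1%. These calls depended on which peaks were kept: with folds at or above the list median, 0 were higher and Lipe and Plin3 were lower. At equal list lengths, the 26485 highest folds of each list, Lipe was higher and Plin3 lower. Without intronic peaks, 3 were higher (Lipe, Plin3 and Pnpla2) and 0 lower. On day -2, the only Lipe peak was an intron one with a fold of 6.93, held by no other list. The top Plin3 peak of that day, with a fold of 16.34, was likewise an intron peak of day -2 alone. No other Lipe or Plin3 peak reached the day -2 median of 5.21. On day 0 their top folds were 4.86 and 3.72, below the list median of 5.48. Day -2 is one of the lists that stood apart, and the part of this in the calls was not tested. From day 0 to day 2, 5 of 7 were called higher (Plin1, Plin2, Cidec, Lipe and Pnpla2), where the background was 17.4%, and 0 of 7 lower, where it was 10.1%. Plin2 was no longer called with folds at or above the list median or at equal list lengths. Lipe had 300 bases and then 1425, and Pnpla2 had 150 and then 1600. Plin1, Plin2 and Cidec had no day 0 peak, so no ratio is given for them. From day 0 to day 10, 4 of 6 were called higher (Plin1, Cidec, Lipe and Pnpla2) against 21.1%, and 0 of 6 lower against 5.92%. With folds at or above the list median the 4 were Plin1, Plin3, Lipe and Pnpla2, and at equal list lengths 3 were called, Plin1, Plin3 and Pnpla2. Among genes with a peak in both lists, the median log2 ratio from day 0 to day 10 was 0.206 over 8310 genes and 1.52 over the 4 of these genes that could be included (Plin3, Plin4, Lipe and Pnpla2).

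From day 5 to day 10, a comparison added once the lists had been seen, Cidec was called lower, 1 of 6 genes against 7.44%, and 0 of 6 higher against 12.6%. With folds at or above the list median, and at equal list lengths, 3 were lower (Cidec, Lipe and Pnpla2). The median log2 ratio was -0.27 over these 6 genes and 0.05 over 8707 genes. Lipe had 3050 and 2000 bases on these days, Plin4 4200 and 3550, Plin1 2575 and 2150, Pnpla2 2050 and 1700, and Plin3 875 and 925.

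**Figure D4:**
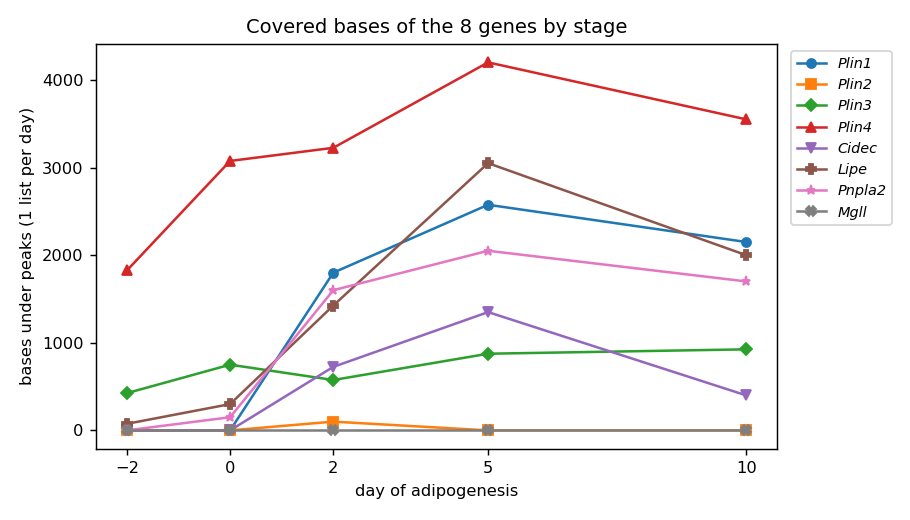
Covered bases of each of the 8 genes on days -2, 0, 2, 5 and 10 of adipogenesis, 1 list per day. Plin1, Cidec, Lipe and Pnpla2 are at 300 bases or less up to day 0 and above that from day 2, and all of them have their highest value on day 5.

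Regions held by days 2, 5 and 10 alone numbered 15 of 67 among these genes, where 1.4% of 67991 regions of all genes did so, and 10 of the 15 belonged to Plin1. Regions held by days 5 and 10 alone numbered 6 of 67, with a background of 1.59%. A region carrying both a coding and a 3′ UTR label, so lying across a stop codon, was found for 3 of the 7 genes with a peak (Plin1, Cidec and Lipe, 42.9%), against 10.7% of all genes with a peak. Labels belong to single peaks, so a region merged from more or wider peaks can gather more of them. These regions were 625, 525 and 450 bases long, where the median over all regions was 125. In the Lipe region, the siCtrl peaks carried the coding label only.

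In the siRNA lists, covered bases of Lipe, Plin3 and Plin4 were lower in each siFTO list than in both siCtrl lists, 3 of the 4 genes with a peak there, and 33.4% of all 11482 genes tested did the same. Those of Pnpla2 were higher in both siFTO lists, 1 of 4, against 25.8%, though not at equal list lengths. Peak number gave the same calls, with backgrounds of 24.1% for lower and 21.6% for higher. Groups were tested by permuting the 4 lists over their 6 assignments, two-sided and exact. This exact permutation test gave p = 0.333 for each gene and measure, the smallest it can give with 2 lists a group, so none could pass 0.05. Adjusted over all 11482 genes (Benjamini-Hochberg), the exact permutation p was 0.563 for covered bases and 0.730 for peak number.

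The second list of each siRNA group has an exon label that the first lacks, so differences are also given within each of these file formats. Lipe had 787.5 ± 88.4 covered bases in siCtrl (SD, n = 2) and 275 ± 141 in siFTO, a ratio of 0.349, with differences of -350 bases between the lists without the exon label and -675 between those with it. Plin3 had 762.5 ± 17.7 in siCtrl and 412.5 ± 17.7 in siFTO, a ratio of 0.541, with -350 in each of these formats. Plin4 had 3012.5 ± 53.0 in siCtrl and 2287.5 ± 230 in siFTO, a ratio of 0.759, with -600 and -850. In none of these genes did the groups overlap, and each difference of means exceeded the SD of either group. With 2 lists a group, the SD reflects only the gap between 2 values, so this adds no evidence to the permutation test. Pnpla2 had 175 in both siCtrl lists and 225 in both siFTO lists, a difference of 50 bases in each format. Its extra siFTO peaks lay at different places, an intron peak with a fold of 19.07 in siFTO 1 and a 3′ UTR peak with a fold of 1.79 in siFTO 2. At equal list lengths the Pnpla2 difference became -62.5 bases and that of Lipe -237.5. With folds at or above the list median, the differences were 0 bases for Plin3, -237.5 for Lipe and -1156 for Plin4. The Plin4 peak number was 20.5 ± 0.707 in siCtrl and 14 in both siFTO lists, a difference of -6.5 peaks. With adjoining peaks counted as a single run, the difference became -1. Such runs numbered 11 and 9 in siCtrl and 8 and 10 in siFTO, so by this count the Plin4 groups overlapped.

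The bases are also given by whether all 4 siRNA lists held a region, as a description, since a region missing from siFTO falls among the others by construction. In Plin3, the 3 shared regions had 450 and 475 bases in siCtrl and 400 and 425 in siFTO, while the other regions had 300 and 300 in siCtrl and 0 and 0 in siFTO. In Lipe, the 1 shared region had 125 and 150 in siCtrl and 150 and 175 in siFTO, against 600 and 700, and 225 and 0, in the rest. Plin4 differed in both, by -437.5 bases in its 6 shared regions and by -287.5 elsewhere. Of 24 regions of these genes with a peak in a siRNA list, 6 were held by both siCtrl lists and neither siFTO list, where 14.6% of all such regions were, and 0 were held by both siFTO lists alone, where 12.3% were. The 6 became 1 with folds at or above the list median and 2 at equal list lengths.

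Plin3 lost 2 coding regions by that count, at 56281401-56281500 (siCtrl folds of 1.85 and 2.05) and 56279876-56280075 (2.43 and 2.44). Plin4 lost a coding region at 56102389-56102500 (2.07 and 2.09) and a 3′ UTR region at 56100776-56100950 (2.59 and 2.44). Lipe lost a coding region at 25388301-25388525 (1.92 and 1.98) and its region across the stop codon at 25379726-25380175 (3.67 and 5.08). Of these 12 folds, all but those of the last region lay below the list medians of 3.45 and 3.49. All 6 regions were held by at least 1 stage list.

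**Figure D5:**
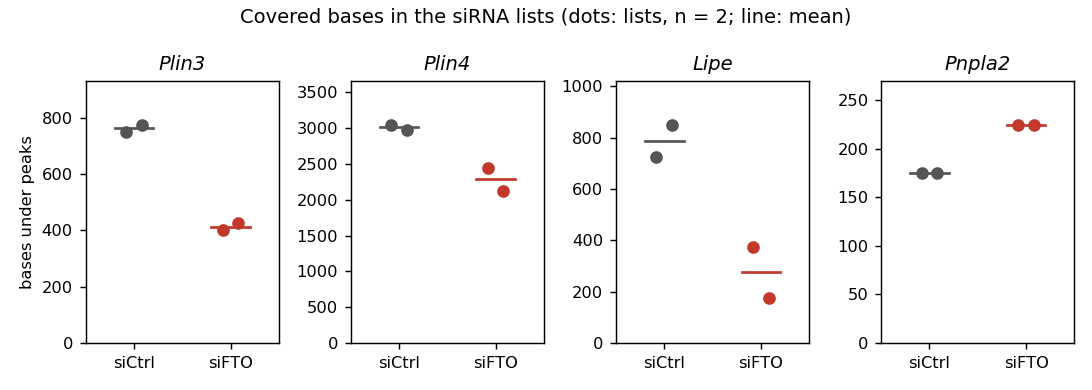
Covered bases of Plin3, Plin4, Lipe and Pnpla2 in the 2 siCtrl and 2 siFTO lists (dots) with group means (lines); each axis starts at 0. The siFTO dots lie below the siCtrl dots for Plin3, Plin4 and Lipe and above them for Pnpla2, which turns at equal list lengths.

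Values of the whole lists also differed between the groups, and their part in these differences was not tested. The siFTO lists had the low 5′ UTR and high intron shares given above. Over 7305 genes with a peak in all 4 siRNA lists, the median log2 ratio of siFTO to siCtrl was -0.15, and over the 4 lipid genes it was -0.64. Summed bases of the preadipocyte and fibroblast markers were 7775 and 7875 in siCtrl and 5075 and 3950 in siFTO. Of the 6 that had a peak, 5 were lower in both siFTO lists, where 33.4% of all 11482 genes tested were. Summed bases of the adipocyte markers were 1900 and 1800 in siCtrl and 1025 and 1275 in siFTO. Of these markers only Cebpa was lower (1150 and 1200 against 200 and 300; all genes, 33.4%). Pparg was higher (350 and 200 against 500 and 475; all genes, 25.8%), Lpl overlapped, and the other 7 had no peak in a siRNA list.

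Most peaks of these genes carried the coding label in each list. The coding share was 30 of 33 peaks in each siCtrl list (90.9%, exact Clopper-Pearson 95% interval 75.7% to 98.1%), where the whole lists had 63.8% and 62.7%. It was 19 of 22 in siFTO 1 and 17 of 20 in siFTO 2. On day 5 it was 58 of 94 (61.7%, interval 51.1% to 71.5%) beside 63.0% of the list. The 3′ UTR share on day 5 was 18 of 94 (19.1%, interval 11.8% to 28.6%), beside 11.6% of the list, and the 5′ UTR share was 4 of 94 (4.26%, interval 1.17% to 10.5%), beside 11.9%. Intervals cover counting error only, and peaks of 1 gene share their source. Plin4 gave 19 of the 30 coding peaks in each siCtrl list and 21 of the 58 on day 5. Pnpla2 gave 8 of the 18 3′ UTR peaks on day 5, in regions that also carried intron labels. Many of its peaks adjoin, so that its 21 and 20 peaks in siCtrl formed 11 and 9 runs. Shares of different lists thus rest on different genes.

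Of 59 other genes of lipid droplets and lipolysis, 51 had a peak and 26 had one in all 9 lists. In siFTO, 12 of 42 with a peak there were lower (all genes, 33.4%) and 11 higher (25.8%). From day -2 to day 0, 13 of 40 were called higher (40.6%) and 8 lower (25.1%). From day 0 to day 2, 9 of 39 were called higher (17.4%) and 1 lower (10.1%). From day 0 to day 10, 11 of 42 were called higher (21.1%) and 3 lower (5.92%), and from day 5 to day 10, 9 of 44 higher (12.6%) and 6 lower (7.44%). The percentages give the share of all genes so called. The 4 with the most covered bases were Cavin1, Gnas, Acsl1 and Adcy6. Cavin1, a coat protein of caveolae, had 1450 to 2175 bases over the 9 lists. Gnas, the G protein subunit that stimulates adenylyl cyclase, had 1400 and 1350 in siCtrl, 600 and 425 in siFTO, and day -2 had 200 against 2125 to 2425 on the other days. Adcy6, an adenylyl cyclase, had 625 to 1450. Acsl1, which activates fatty acids to acyl-CoA, had 75 to 425 in the siRNA lists and on days -2 and 0, and 2275, 3675 and 2400 on days 2, 5 and 10.

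Outside the naming rule, and chosen after their values were seen, are 3 regulators of Pnpla2 and of lipolysis. Abhd5, the activator of Pnpla2, had a peak in all 9 lists, with 150 to 450 bases. G0s2, its inhibitor, had 375 bases on days 2 and 5 and 0 elsewhere. Adrb3, the adrenergic receptor that starts lipolysis in fat cells, had 125 bases on day 5, 1575 on day 10 and 0 elsewhere, so its highest value came on day 10, while the summed bases of the 8 genes were highest on day 5.

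The 5 genes most like the summed covered bases of the 8 genes over the 9 lists, by Pearson r among 9770 genes, were Nod1 (0.988), Acsl1 (0.987), Slc22a23 (0.986), Tex2 (0.985) and Igfals (0.983). The lists share their peak number and stage with every gene, 270 genes had r of at least 0.9, and 9 lists are few, so this is a description. Nod1 had 1650, 2350 and 1925 bases on days 2, 5 and 10 and 250 to 700 in the other lists.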

How the data were processed

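Peaks were called for each IP with its own input, not on pooled samples. The submitters' processing notes name TopHat2 2.0.9, bedtools and the mm10 build. No source used here names the peak caller, its thresholds or a scaling for depth. The deposited number per peak, called an enrichment in the file headers, was taken as the authors' fold (ratio) of IP over input and served only to describe or rank peaks within a list. Read depth is unknown. Replicate 2 lists alone have an exon class (0.741% and 0.883% of peaks), and the first siRNA lists, unnumbered in the labels, are called replicate 1. Lines of the mitochondrial genome, with shifted cells, were set apart.

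Of 12634 gene IDs, 12492 matched a symbol, and all 8 genes matched. Peaks sharing at least 1 base within a gene were merged into regions. Coordinates count from 1. Python 3.11.15, pandas 2.3.3, SciPy 1.17.1 and statsmodels were used. Covered bases and the counts of genes lower or higher in siFTO were checked on simulated data. Gained and lost regions were checked there only for reaching at least the number made, and stage calls were not checked. The siCtrl lists shared 19 peaks of these genes at identical positions, 0 with the same fold, and were kept as 2 samples. Genes named by rule were the 8, the 4 listed genes with most covered bases, and the 5 most alike. Abhd5, G0s2 and Adrb3 were added after their values were seen, and marker genes and Fto describe the lists. Regions named by rule were the most widely held, and those lost in siFTO or held by days 5 and 10 alone. Pnpla2 regions held by days 2, 5 and 10 alone were named besides. The genes and lists were chosen with earlier results of these data known.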

Additional observations from a re-analysis of the deposited data

How the results depend on the processing

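No paired analysis was possible because siCtrl and siFTO share only 1 replicate number in the labels. The exon class ties the replicate 2 lists by file format, and the differences within each format stand in the report. Genes with fewer covered bases in siFTO numbered 2 to 4 under the alternatives run (3 in the report). Keeping folds at or above the list median left 0 genes with more bases in siFTO (1 in the report), 1 lost region (6), 0 genes called higher (2) and 2 lower (0; Lipe, which reversed, and Plin3) from day -2 to day 0, and 3 lower from day 5 to day 10 (1), namely Cidec, Lipe and Pnpla2; Plin3 then differed by 0 bases. With equal list lengths (26485 peaks), the Pnpla2 difference reversed to -62.5 bases, with 0 genes with more bases, 2 lost regions, 1 higher and 1 lower from day -2 to day 0, and 3 lower from day 5 to day 10, again Cidec, Lipe and Pnpla2. Without intronic peaks 0 genes had more bases in siFTO. Leaving out 1 list gave 0 to 1 gained regions, the 1 appearing with either siFTO list alone. The cause of these shifts was not tested. Numbers of calls from day 0 to day 2 and to day 10 stayed within 1.5 times, with the changed genes named in the report. Unknown read depth and 1 list a stage limit all values.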
